A study of Homo sapiens with 6 samples.

Results

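The genes of the integrated stress response and of serine synthesis were followed in OVCAR5, a long-established ovarian cancer cell line. The 34 genes were listed by name, with earlier results of these data known, and all 34 were found among the 62656 genes of the deposited tables. Cells received 100 nM NTX301, which the labels call a DNA hypomethylating agent (a drug that lowers cytosine methylation in DNA), or dimethyl sulfoxide (DMSO, labelled simply as such), for 3 days in both cases. Each treatment had 3 RNA sequencing libraries, of 23194160 to 23842859 estimated counts with NTX301 and 22131175 to 25743732 with DMSO. The labels do not state that the libraries of a treatment are separate cultures, so the p-values below rest on library-to-library spread that may be technical. A single cell line carries all results, and a lower level in such bulk RNA can reflect fewer cells with the transcript or less of it per cell, which cannot be told apart here.

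The integrated stress response starts with protein kinases that phosphorylate the translation factor eIF2, each kinase sensing a different stress. Phosphorylated eIF2 slows translation in general and favours that of a few mRNAs, above all ATF4, whose protein then switches on genes for amino acid synthesis, amino acid uptake and feedback control. Prolonged signalling also raises CHOP, the transcription factor encoded by DDIT3. ATF4 is controlled largely at translation, which RNA levels do not measure. In tumour cells the same factor sustains the synthesis of serine from glucose, which feeds the folate cycle with carbon units for nucleotides.

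All 8 epithelial markers were at 1 TPM (a relative transcript level scaled for gene length) or more in every library and summed to 2750 to 2830 TPM with NTX301, against 4480 to 4670 TPM with DMSO. The leukocyte markers PTPRC, CD3E, CD14 and CD68 summed to 77.8 to 84.3 TPM with NTX301 and 41.5 to 48.0 TPM with DMSO. PTPRC and CD3E were under 0.1 TPM in all libraries, and CD14 and CD68 at 1 TPM or more in all. The 4 endothelial markers summed to 2.12 to 2.38 TPM with NTX301 and 1.47 to 1.64 TPM with DMSO, with KDR under 0.1 TPM, and the 6 fibroblast markers to 3.77 to 4.43 TPM with NTX301 and 1.23 to 1.67 TPM with DMSO, with COL1A2 under 0.1 TPM. No endothelial or fibroblast marker was at 1 TPM or more in every library. The part of these marker shifts in the results below was not tested. DMSO replicate 3 lay away from its group on the second principal component (-34.5, against 22.5 and 13.5 for replicates 1 and 2), and without it 12 members rose and 15 fell.

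The set had no common direction with NTX301. PPP1R15A, DDIT3, STC2 and ALDH1L2 rose by 2-fold or more, while DDIT4 and PYCR1 fell by 2-fold or more. ATF4 mRNA itself fell slightly. Of the 34 genes, 33 had enough counts to be tested, all but FGF21, and 14 rose and 14 fell (edgeR's quasi-likelihood test, p adjusted over 19029 tested genes by Benjamini-Hochberg, threshold 0.05), which is 42.4% of the tested members in each direction. Over all tested genes 35.4% rose and 35.1% fell, so the members' shares were only somewhat above a high background. By 2-fold or more, 4 members rose and 2 fell, against 13.4% and 8.55% of all tested genes. The libraries of NTX301 and DMSO did not overlap in 30 of the 33 tested members, against 73.7% of all tested genes. The median log2 fold change of the tested members was -0.10, and that of all tested genes was 0.00. Without a scaling factor between libraries the median of all tested genes was 0.21, and 16 members rose and 10 fell (48.5% and 30.3% of 33, against 46.2% and 24.9% of all genes in that fit). On log2(TPM + 1), 15 rose and 9 fell (46.9% and 28.1% of 32, against 43.1% and 23.0% of all genes), so the split of the members moved with that of all genes. Fold changes are therefore relative to the typical gene.

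**Figure D1:**
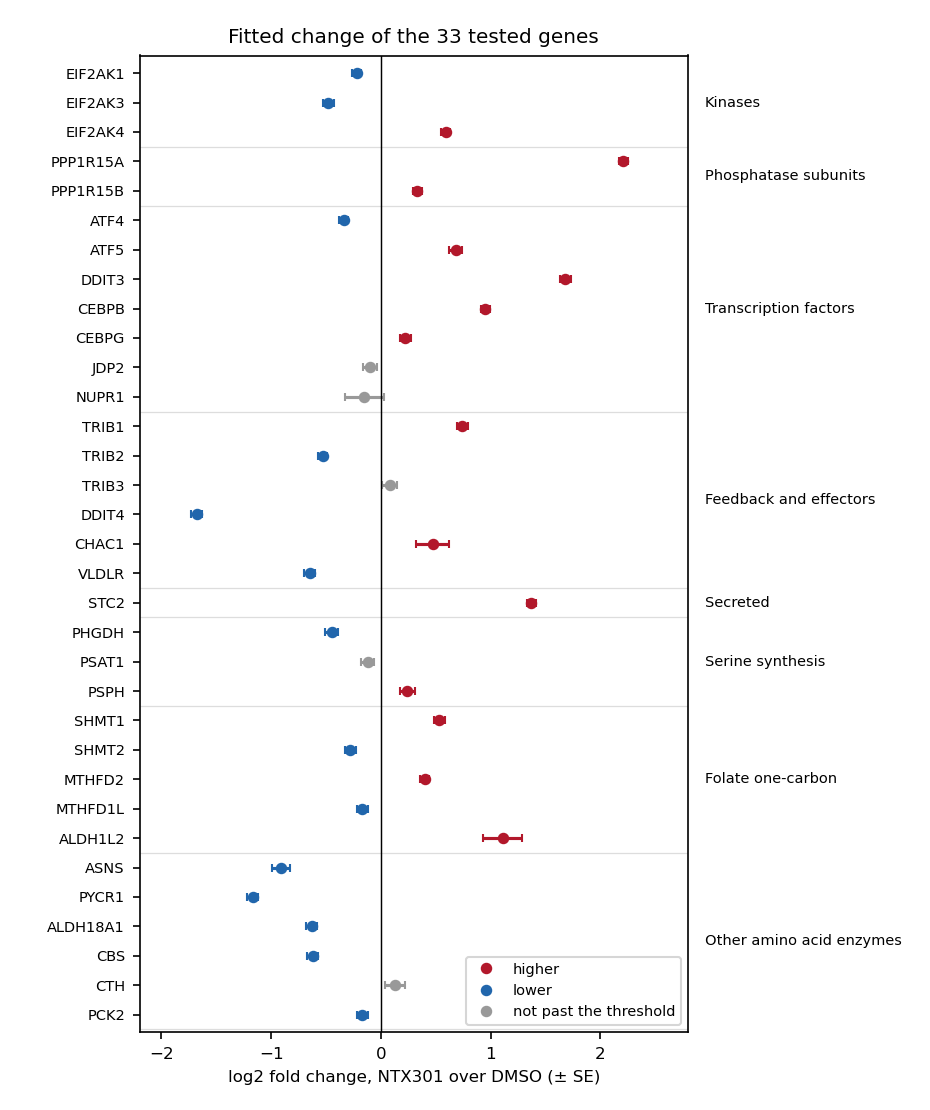
Fitted log2 fold change (NTX301 over DMSO, horizontal axis) of the 33 tested genes with standard error bars, in blocks by role down the page. Colour gives the direction of the call. PPP1R15A lies highest at 2.21 and DDIT4 lowest at -1.68, and no enzyme in the bottom block is coloured as higher.

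Levels below are CPM (estimated counts relative to the library's total) with TMM scaling, in replicates 1, 2 and 3 in this order. The 3 eIF2 kinases of the set changed in opposite directions. EIF2AK4 encodes GCN2, the kinase that senses uncharged tRNA and so amino acid shortage. It stood at 113, 117 and 117 CPM with NTX301, against 78.9, 78.2 and 72.8 CPM with DMSO, with no overlap, and rose by 0.59 ± 0.04 as a log2 fold change (here and below with its SE, adjusted p = 1.3e-07). EIF2AK3, which encodes the endoplasmic reticulum (ER) kinase PERK, had 29.6, 31.6 and 29.8 CPM with NTX301, against 41.9, 40.9 and 44.5 CPM with DMSO. Every NTX301 library was lower, and the gene fell by 0.48 ± 0.05 on the log2 scale (adjusted p = 4.7e-06). EIF2AK1, the haem-regulated kinase HRI, had 263, 259 and 258 CPM with NTX301, against 306, 308 and 296.5 CPM with DMSO. Per length it was the highest of the 3, at 114 TPM with NTX301 and 115 TPM with DMSO, while EIF2AK4 averaged 40.6 and 23.3 TPM and EIF2AK3 12.8 and 15.5 TPM. Its fall of 0.22 ± 0.04 on the log2 scale (adjusted p = 1.6e-04) was not called without a scaling factor (log2 -0.02, adjusted p = 0.6812) or on log2(TPM + 1) (-0.01, adjusted p = 0.8088). EIF2AK1 shares its locus with AIMP2 on the other strand, which averaged 78.7 CPM with NTX301 and 52.5 CPM with DMSO.

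Both regulatory subunits of the phosphatase that removes the phosphate from eIF2 rose. PPP1R15A encodes GADD34, the stress-induced subunit that closes the feedback loop (chromosome 19, 48872392 to 48876057 in GRCh38). It had 214, 205 and 207 CPM with NTX301, against 46.5, 46.0 and 42.7 CPM with DMSO. All NTX301 libraries lay far above all DMSO libraries, a 4.63-fold rise (log2 2.21 ± 0.04, adjusted p = 2.2e-11) that was the largest among the members. PPP1R15B, the constitutive subunit CReP, had 81.5, 78.5 and 83.5 CPM with NTX301 against 66.6, 62.7 and 64.5 CPM with DMSO, and rose by only 0.33 ± 0.04 (adjusted p = 2.3e-05). In TPM, which allows genes to be compared per length, the PPP1R15A level was 5.69 ± 0.195 times that of PPP1R15B with NTX301 and 1.55 ± 0.0812 times with DMSO (SD, n = 3 each).

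**Figure D2:**
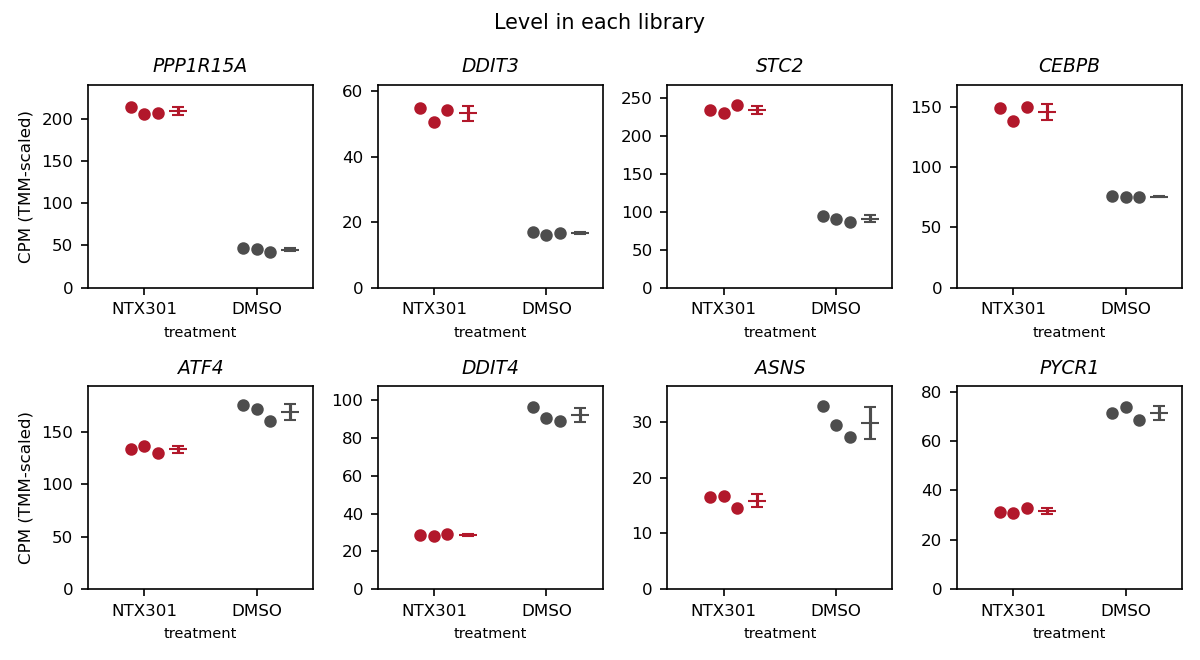
CPM of 8 genes in each library (points, 3 for NTX301 on the left and 3 for DMSO on the right of each panel), with the mean and SD as the bar beside them. The upper row shows genes that lie higher with NTX301 and the lower row genes that lie lower, and the points of the treatments do not overlap in any panel.

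Among transcription factors, 4 of 7 rose, 1 fell and 2 were not past the threshold, while over all tested genes 35.4% rose and 35.1% fell. DDIT3 (chromosome 12, 57516588 to 57521737) had 54.8, 50.7 and 54.3 CPM with NTX301, against 17.1, 16.2 and 16.7 CPM with DMSO. The groups were well apart, with a 3.20-fold rise (log2 1.68 ± 0.05, adjusted p = 2.3e-10). Of the 34 members, 18 overlap a gene on the other strand, and how strand was handled in counting is not stated, so reads of such pairs may not be separable. For DDIT3 these are MARS (now MARS1) and MBD6, which stood at 72.4 and 38.5 CPM with NTX301, against 96.5 and 65.7 CPM with DMSO, so both were lower where DDIT3 was higher. AC022506.1, on the same strand, averaged 1.36 CPM with NTX301 and 0.226 CPM with DMSO. ATF4 (chromosome 22, 39519695 to 39522685) had 133, 136.5 and 129.8 CPM with NTX301, against 175, 172 and 160.0 CPM with DMSO. Each NTX301 library was below each DMSO library, and ATF4 fell by 0.34 ± 0.04 on the log2 scale (adjusted p = 1.8e-05); on log2(TPM + 1) the difference was -0.13 and missed the threshold (adjusted p = 0.0505). The ATF4 level in TPM was 1.57 ± 0.0999 times that of DDIT3 with NTX301 and 6.40 ± 0.350 times with DMSO (SD, n = 3 each).

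CEBPB, a leucine zipper factor that pairs with ATF4 and CHOP, had 149, 138 and 150.1 CPM with NTX301, against 76.0, 75.6 and 75.1 CPM with DMSO. The DMSO libraries were nearly equal and all lower, and the gene rose by 0.95 ± 0.04 (adjusted p = 2.6e-09). CEBPG, a partner that heterodimerises with ATF4, moved less, with 36.2 ± 2.04 CPM with NTX301 and 31.0 ± 0.349 CPM with DMSO (SD, n = 3 each, log2 0.22 ± 0.05, adjusted p = 0.0026). ATF5, a relative of ATF4 that is also controlled at translation, had 91.5, 84.9 and 88.7 CPM with NTX301 against 56.4, 58.9 and 50.5 CPM with DMSO, a rise of 0.68 ± 0.06 (adjusted p = 5e-07). ATF5 overlaps NUP62 on the other strand, which averaged 85.6 CPM with NTX301 and 85.4 CPM with DMSO. JDP2, an AP-1 family repressor, stood at 19.5 ± 0.436 CPM with NTX301 and 20.9 ± 0.409 CPM with DMSO (SD, n = 3 each), and NUPR1, a small stress-induced nuclear protein, at 1.83 ± 0.188 and 2.02 ± 0.255 CPM. Neither passed the test (log2 -0.10 ± 0.06, adjusted p = 0.1412, and -0.15 ± 0.18, adjusted p = 0.4865).

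The feedback and effector genes moved both ways, 2 of 6 rising and 3 falling, against 35.4% and 35.1% of all tested genes. DDIT4 encodes REDD1, an inhibitor of the growth kinase complex mTORC1 (chromosome 10, 72273920 to 72276036). It had 28.8, 28.2 and 29.2 CPM with NTX301, against 96.2, 90.6 and 89.2 CPM with DMSO. No library of either treatment came near the other group, and the gene fell by 1.68 ± 0.05 on the log2 scale, 3.20-fold lower (adjusted p = 8.6e-11). DDIT4 and DDIT3, both named for induction by DNA damage, thus changed by the same fold in opposite directions. CHAC1, a cyclotransferase that breaks down glutathione, was low, at 5.52, 4.33 and 4.55 CPM with NTX301 and 3.66, 3.75 and 2.94 CPM with DMSO. It rose by 0.47 ± 0.15 (adjusted p = 0.0129), a call lost without NTX301 replicate 1 (log2 0.36, adjusted p = 0.0651) or without DMSO replicate 3 (log2 0.36, adjusted p = 0.0511). VLDLR, a lipoprotein receptor, had 20.4, 21.2 and 21.9 CPM with NTX301 and 34.2, 33.75 and 31.75 CPM with DMSO, and fell by 0.65 ± 0.05 (adjusted p = 5.3e-07).

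The 3 Tribbles pseudokinases, scaffold proteins that bind ubiquitin ligases and signalling kinases, each behaved differently. TRIB1 had 84.35, 85.8 and 92.25 CPM with NTX301, against 54.7, 51.6 and 51.2 CPM with DMSO, and rose by 0.74 ± 0.05 (adjusted p = 6.2e-08). TRIB2 had 33.1, 33.2 and 34.6 CPM with NTX301 against 48.0, 48.7 and 48.8 CPM with DMSO, and fell by 0.53 ± 0.04 (adjusted p = 5.5e-07). TRIB3, which feeds back on ATF4 and is a CHOP target, had 38.3, 36.4 and 37.8 CPM with NTX301, within the spread of the DMSO libraries at 39.5, 33.2 and 33.4 CPM. It was not called (log2 0.08 ± 0.07, adjusted p = 0.2845), and DMSO replicate 1 was the library that reached above the NTX301 values. Without that library TRIB3 was called higher (log2 0.16, adjusted p = 0.0198), as it was without a scaling factor (log2 0.29, adjusted p = 0.0016).

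Of the secreted factors, STC2 rose. It encodes stanniocalcin 2, a secreted glycoprotein that blocks a protease of the insulin-like growth factor system (chromosome 5, 173314713 to 173329503), and had 234, 230.4 and 241 CPM with NTX301, against 95.2, 91.2 and 86.2 CPM with DMSO, a rise of 1.37 ± 0.04 on the log2 scale (2.59-fold, adjusted p = 2.3e-10). FGF21, a hormone of starvation and mitochondrial stress, had 2 counts over the 3 NTX301 libraries and 0 over the 3 DMSO libraries, both within a floor of 3 counts, so no fold is given and a difference was not detectable at this depth.

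Serine synthesis from the glycolytic intermediate 3-phosphoglycerate takes 3 enzymes, and their mRNAs did not move together. PHGDH, the dehydrogenase of the first step, had 40.0, 37.5 and 38.1 CPM with NTX301, against 55.8, 53.2 and 48.9 CPM with DMSO. Its groups did not overlap, and it fell by 0.45 ± 0.06 on the log2 scale (adjusted p = 1.5e-05). PSAT1, the aminotransferase of the second step, had 31.7, 35.1 and 33.2 CPM with NTX301 and 39.2, 35.2 and 34.1 CPM with DMSO, so the groups overlapped, and it was not called (log2 -0.12 ± 0.06, adjusted p = 0.1060). Without DMSO replicate 3, PSAT1 was called lower (log2 -0.17, adjusted p = 0.0318). PSPH, the phosphatase that releases serine, had 35.2, 40.3 and 38.2 CPM with NTX301, against 33.6, 34.04 and 28.4 CPM with DMSO, and rose by 0.24 ± 0.07 (adjusted p = 0.0114). This call was lost without NTX301 replicate 2 (log2 0.19, adjusted p = 0.0528) and without DMSO replicate 3 (log2 0.15, adjusted p = 0.0503). The summed level of the 3 genes was 107.7 ± 3.84 TPM with NTX301 and 104.3 ± 5.40 TPM with DMSO (SD, n = 3 each). This difference was smaller than the spread of the DMSO libraries. TPM sums here and below are not scaled to the typical gene, whose log2(TPM + 1) moved up by a median of 0.16 with NTX301.

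The folate enzymes that take carbon units from serine split by enzyme. SHMT1, the cytosolic serine hydroxymethyltransferase, had 33.75, 34.9 and 33.1 CPM with NTX301 against 23.0, 24.4 and 22.9 CPM with DMSO, and rose by 0.53 ± 0.05 (adjusted p = 1.9e-06). SMCR8, on the other strand at this locus, averaged 88.4 CPM with NTX301 and 66.2 CPM with DMSO. SHMT2, its mitochondrial counterpart, had 89.8, 87.7 and 87.2 CPM with NTX301 against 113, 109.7 and 97.9 CPM with DMSO. It fell by 0.28 ± 0.05 (adjusted p = 4.7e-04), a call absent without a scaling factor (log2 -0.07, adjusted p = 0.2142) and on log2(TPM + 1) (-0.09, adjusted p = 0.1701). The SHMT2 level was 3.02 ± 0.145 times that of SHMT1 in TPM with NTX301 and 5.42 ± 0.336 times with DMSO (SD, n = 3 each), so SHMT2 was the higher per length with both treatments.

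MTHFD2, the mitochondrial methylene-tetrahydrofolate dehydrogenase that many tumours express strongly, had 161.5, 158 and 160.3 CPM with NTX301, against 128, 121 and 116 CPM with DMSO. All NTX301 libraries were higher, and MTHFD2 rose by 0.40 ± 0.04 (adjusted p = 4.7e-06). ALDH1L2, a mitochondrial dehydrogenase of 10-formyltetrahydrofolate, was detected at 3.39, 3.27 and 4.36 CPM with NTX301 against 1.91, 1.42 and 1.78 CPM with DMSO. It rose by 1.11 ± 0.18 (adjusted p = 1.9e-04), and C12orf45, which overlaps it on the other strand, averaged 11.5 CPM with NTX301 and 8.52 CPM with DMSO. MTHFD1L, which releases formate from mitochondria, fell by 0.17 ± 0.05 (45.0 ± 1.33 CPM with NTX301 and 50.7 ± 2.41 CPM with DMSO, SD, n = 3 each, adjusted p = 0.0077), but had the opposite sign, uncalled, without a scaling factor (log2 0.03, adjusted p = 0.5419) and on log2(TPM + 1) (0.03, adjusted p = 0.6887). The 4 mitochondrial folate genes SHMT2, MTHFD2, MTHFD1L and ALDH1L2 together held 268.7 ± 8.44 TPM with NTX301 and 217 ± 7.88 TPM with DMSO (SD, n = 3 each). The largest gain was in MTHFD2, and the sum includes the upward shift of TPM over all genes.

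**Figure D3:**
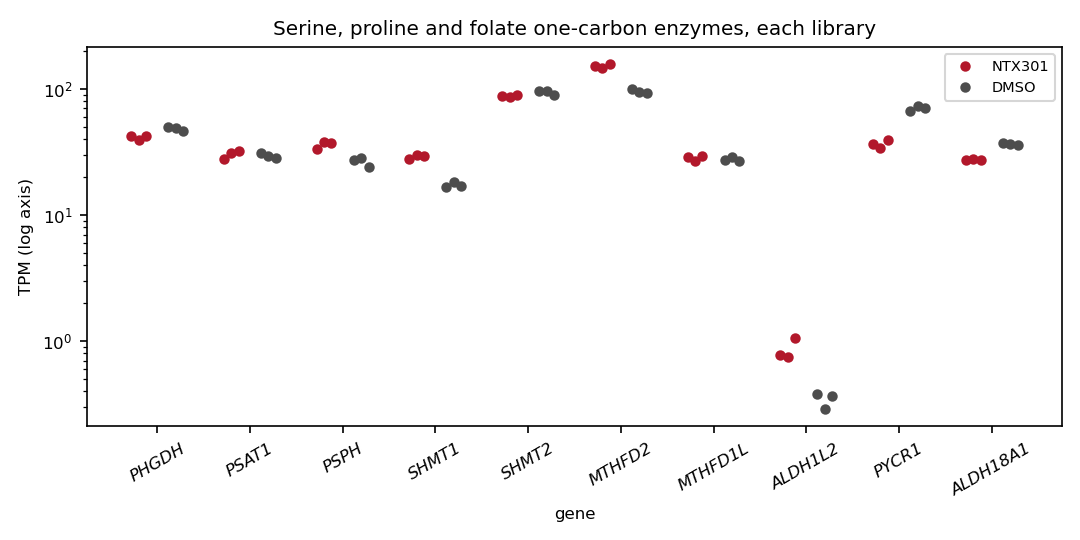
TPM of 10 enzymes of serine, folate one-carbon and proline synthesis in each library, on a log axis, with NTX301 to the left of DMSO for each gene. PYCR1 and ALDH18A1 lie lower with NTX301, MTHFD2, SHMT1 and ALDH1L2 higher, and PSAT1, SHMT2 and MTHFD1L overlap.

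Of the 6 other amino acid enzymes of the list, 5 fell and none rose, while over all tested genes 35.1% fell and 35.4% rose. That 1-way split depended on scaling. Without a scaling factor and on log2(TPM + 1), PCK2 was not called and CTH was called higher (log2 0.34 and 0.28). PYCR1, the mitochondrial reductase that completes proline synthesis (chromosome 17, 81932384 to 81942412), had 31.4, 30.8 and 32.8 CPM with NTX301, against 71.5, 74.1 and 68.7 CPM with DMSO. It was 2.26-fold lower (log2 -1.17 ± 0.05, adjusted p = 1.2e-09), with no overlap. ALDH18A1, the synthase of the first step from glutamate towards proline, had 47.2, 48.5 and 45.6 CPM with NTX301 against 76.3, 72.5 and 69.9 CPM with DMSO, and fell by 0.63 ± 0.05 (adjusted p = 1.9e-07). Together the proline genes held 63.9 ± 2.28 TPM with NTX301 and 106 ± 2.70 TPM with DMSO (SD, n = 3 each).

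ASNS, asparagine synthetase and a textbook ATF4 target (chromosome 7, 97852118 to 97872542), had 16.5, 16.6 and 14.5 CPM with NTX301, against 32.9, 29.5 and 27.3 CPM with DMSO. Every NTX301 library was well under every DMSO library, 1.88-fold lower (log2 -0.91 ± 0.08, adjusted p = 7.9e-07). CBS, which condenses serine with homocysteine in the first step of transsulfuration, had 35.8, 36.7 and 38.7 CPM with NTX301 against 57.2, 56.7 and 56.3 CPM with DMSO, and fell by 0.62 ± 0.05 (adjusted p = 1.7e-07). CTH, which completes that route to cysteine, stood at 8.02, 7.55 and 7.23 CPM with NTX301 and 6.68, 7.21 and 6.94 CPM with DMSO and was not called (log2 0.13 ± 0.09, adjusted p = 0.2326), though it was called higher without a scaling factor (log2 0.34, adjusted p = 0.0071). PCK2, the mitochondrial phosphoenolpyruvate carboxykinase, fell by 0.17 ± 0.05 (37.2 ± 1.15 CPM with NTX301 and 41.7 ± 1.85 CPM with DMSO, SD, n = 3 each, adjusted p = 0.0109), with the opposite sign, uncalled, without a scaling factor (log2 0.04, adjusted p = 0.4759) and on log2(TPM + 1) (0.03, adjusted p = 0.6106).

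The order of levels within the set changed with treatment. Per length, in TPM, ATF4 was the highest member with both, at 190.4 ± 3.65 with NTX301 and 208 ± 6.08 with DMSO (SD, n = 3 each). PPP1R15A ranked 2 with NTX301 (174 ± 5.49 TPM) and 15 with DMSO (32.1 ± 1.03 TPM), and DDIT3 ranked 5 (122 ± 7.46 TPM) and 14 (32.5 ± 0.837 TPM). DDIT4 went the other way, ranking 16 with NTX301 (32.7 ± 1.48 TPM) and 5 with DMSO (90.5 ± 1.51 TPM). Neighbours in this order were often within their spread, as CEBPB (157 ± 10.5 TPM) and MTHFD2 (152 ± 5.17 TPM) were with NTX301, and MTHFD2 (95.5 ± 3.81 TPM), SHMT2 (93.7 ± 3.96 TPM) and DDIT4 with DMSO. All 34 members together held 1789 ± 61.4 TPM with NTX301 and 1369 ± 23.4 TPM with DMSO (SD, n = 3 each). The largest gains were in PPP1R15A, DDIT3, CEBPB and STC2. Over all genes averaging at least 1 TPM, log2(TPM + 1) also moved up, by a median of 0.16, and the sum is not corrected for that.

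ATF4 binds with C/EBP partners to an amino acid response element, and its core, TGATGNAA, was searched on both strands in RefSeq promoter windows (GRCh38.p14, 250 bases before to 50 bases after the annotated start). Of 27 members with a window, 5 held a match (18.5%, against 3.62% of the 35116 windows of the table). Of these, 2 were in genes that rose (CHAC1 and PPP1R15B), 2 in genes that fell (ASNS and MTHFD1L) and 1 in FGF21. As given above, the CHAC1 call was lost without NTX301 replicate 1 or without DMSO replicate 3. The MTHFD1L call was lost without a scaling factor and on log2(TPM + 1). The ASNS and CHAC1 windows are shown because both hold the core and their mRNAs moved in opposite directions, with the match in capitals. In ASNS it starts at base -68 from the start site on the gene's strand, and in CHAC1 the reverse complement starts at -209. The ASNS window is chr7:97872359-97872658 on the minus strand and the CHAC1 window chr15:40953221-40953520 on the plus strand, each printed 5′ to 3′ on the strand of its gene.
ASNS: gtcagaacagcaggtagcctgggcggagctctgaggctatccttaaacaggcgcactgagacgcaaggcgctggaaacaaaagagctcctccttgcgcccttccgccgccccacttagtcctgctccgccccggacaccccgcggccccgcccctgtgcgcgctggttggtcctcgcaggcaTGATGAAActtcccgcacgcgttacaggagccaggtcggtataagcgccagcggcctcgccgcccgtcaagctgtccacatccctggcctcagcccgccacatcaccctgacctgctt
CHAC1: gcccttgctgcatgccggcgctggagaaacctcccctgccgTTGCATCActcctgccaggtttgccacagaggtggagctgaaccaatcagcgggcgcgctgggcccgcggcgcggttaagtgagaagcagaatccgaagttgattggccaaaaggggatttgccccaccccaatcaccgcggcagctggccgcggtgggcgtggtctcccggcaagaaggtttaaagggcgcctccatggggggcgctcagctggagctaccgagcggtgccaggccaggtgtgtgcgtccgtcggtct
A match is a run of letters and not a shown binding site, and a window without one shows only that these letters are absent from it. The member windows had a median of 26 CpG dinucleotides, the sites of DNA methylation, against 14 over the whole table. They ranged from 1 in FGF21 to 50 in CBS. Both this median and the motif share set 1 window per member against every window, whether or not its gene is expressed. Neither was compared with expressed genes alone, so the gaps are not shown to be particular to this set. ATF5 held 3, PPP1R15A 24, DDIT3 26, DDIT4 30 and ALDH18A1 31.

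The length that the tables give a gene is the mean length of its transcripts weighted by their estimated abundance, so a shift in it reflects a different estimated mix of transcripts. Of the 33 tested members, 12 had lengths that did not overlap between treatments (36.4%, against 16.5% of all tested genes). Genes with 1 annotated transcript, such as CEBPB, STC2 and EIF2AK1, cannot shift in length. The shares were not matched for transcript number or level, so the gap is not shown to be particular to this set. Several of the 12 shifts were very small. PHGDH averaged 1850 bases with NTX301 and 1858 with DMSO, CEBPG 3743 and 3730, and EIF2AK3 4586 and 4569. MTHFD2, with 12 annotated transcripts, had 2072, 2091 and 2082 bases with NTX301, against 2133, 2174 and 2191 bases with DMSO, 84 bases shorter on average. TRIB3 had 2307, 2306 and 2287 bases with NTX301 against 2323, 2335 and 2329 bases with DMSO. PSAT1 was longer, at 2205, 2171 and 2117 bases with NTX301 against 2092, 2053 and 2115 bases with DMSO. TRIB2 averaged 3652 bases with NTX301 and 3805 with DMSO, and NUPR1, at few counts, 686 and 759 bases. No test was made of these lengths.

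Related genes gave the members a wider frame. Of 36 tested genes listed as other targets of ATF4 and CHOP, 15 rose and 16 fell (median log2 fold change -0.06). The split was 19 and 12 without a scaling factor. Over all tested genes 35.4% rose and 35.1% fell, and 46.2% and 24.9% without a scaling factor. ATF3, a stress transcription factor induced early in this pathway, averaged 21.1 ± 1.92 CPM with NTX301 and 4.16 ± 0.396 CPM with DMSO (SD, n = 3 each, log2 2.34 ± 0.10, adjusted p = 2.2e-09). SLC1A4, a transporter of serine and alanine, rose by 0.66 ± 0.06 (adjusted p = 1.2e-06), while BBC3, the pro-apoptotic protein PUMA, fell by 1.30 ± 0.11 (5.01 ± 0.621 CPM with NTX301 and 12.3 ± 0.840 CPM with DMSO) and KLHL24, a ubiquitin ligase adaptor, fell by 1.01 ± 0.06.

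Genes of ER folding and of the other arms of the unfolded protein response went mostly down. Of 26, 21 fell and 1 rose (median -0.53), while over all tested genes 35.1% fell and 35.4% rose. CRELD2, an ER chaperone, averaged 40.8 ± 1.01 CPM with NTX301 and 90.4 ± 0.110 CPM with DMSO (SD, n = 3 each), a fall of 1.15 ± 0.04 (adjusted p = 4.1e-10), and SDF2L1, another ER resident, fell by 1.15 ± 0.09. HSPA5, the chaperone BiP and the usual marker of ER stress, was chosen after its values were seen and averaged 622 ± 8.30 CPM with NTX301 and 1243 ± 55.7 CPM with DMSO. The gene of this list that rose was ERN1, the ER stress sensor IRE1, by 0.47 ± 0.05. Without a scaling factor the split was 6 rising and 18 falling, against 46.2% and 24.9% of all tested genes in that fit.

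The last 2 lists stand beside 35.4% rising and 35.1% falling over all tested genes, or 46.2% and 24.9% without a scaling factor. Of 20 tested genes of eIF2, its exchange factor eIF2B and their regulators, 8 rose and 11 fell (median -0.15). Without a scaling factor 9 rose and 7 fell. EIF2S1, the eIF2 subunit that the kinases phosphorylate, averaged 207 CPM with NTX301 and 112 CPM with DMSO (log2 0.88 ± 0.04, adjusted p = 7.6e-09). EIF2B1, the alpha subunit of eIF2B, rose by 0.45 ± 0.04. OMA1, the mitochondrial protease that relays mitochondrial stress towards HRI, fell by 0.80 ± 0.09, and DNAJC3, an ER co-chaperone that inhibits eIF2 kinases and also stands in the ER list, fell by 0.76 ± 0.04. Of 31 folate and glycine genes 11 rose and 16 fell (median -0.21; 13 and 11 without a scaling factor). TYMS, thymidylate synthase, rose by 1.12 ± 0.04 and GGH, a hydrolase of folate polyglutamates, by 1.09 ± 0.09, while FPGS, which adds those glutamates, fell by 1.10 ± 0.05 and DHFR2, a dihydrofolate reductase paralogue, by 0.94 ± 0.10.

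**Figure D4:**
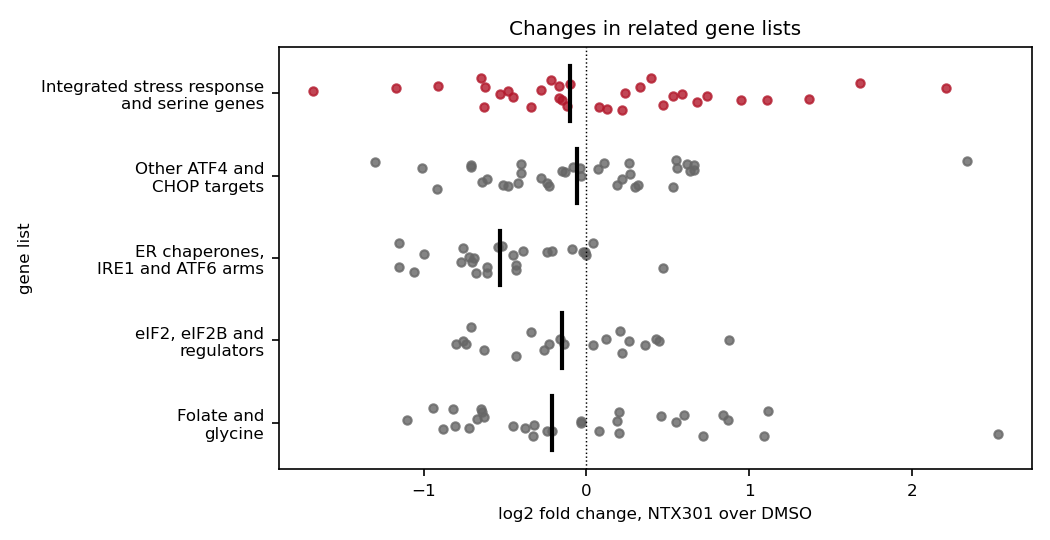
Log2 fold change (NTX301 over DMSO, horizontal axis) of each tested gene in the stress and serine set and in 4 related lists down the page, with a bar at each median. The medians are -0.10, -0.06, -0.53, -0.15 and -0.21 from top to bottom, and the ER list is the one shifted most to the left.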

How the data were processed

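RNA from 3 NTX301 and 3 DMSO libraries of OVCAR5 cells was analysed from 1 deposited gene table per library, grouped by the labels' titles. Per the file headers the tables have the columns of RSEM. The expected counts, as deposited, estimate the reads of each gene without normalization, and the deposited TPM values are scaled by the authors to a common sum. Aligner and counter versions, genome build, annotation and strand setting are not stated in the labels; RSEM shares ambiguous reads between similar genes by estimate. Of 62703 entries, 47 pseudoautosomal copies were merged into their X genes, and symbols were joined by stable identifier (62639 of 62656 genes). Gene positions are from GENCODE release 29 (GRCh38).

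Counts were rounded and fitted with edgeR 4.0.16 in R 4.3.3 (filterByExpr, TMM scaling, glmQLFit and glmQLFTest, a treatment term alone). Benjamini-Hochberg adjustment ran over all tested genes, with a threshold of 0.05; standard errors come from the fold change and F statistic. The fit was run on simulated data in which far fewer genes changed than here, with rises and falls balanced. That run does not test the scaling where most genes change. Alternatives used DESeq2 1.42.0, limma 3.58.1 on log2(TPM + 1) for genes averaging at least 1 TPM, other scalings and filters, a replicate block, and each library left out. Deviations from the group means of same-numbered NTX301 and DMSO libraries correlated at 0.336, 0.229 and 0.105 over 10499 genes. Differently numbered pairs ranged from -0.336 to 0.13, the highest being NTX301 replicate 3 with DMSO replicate 2. A pairing is therefore not established, and the block served as an alternative only. The labels do not explain the numbers. Pairs of libraries within a group differed beyond counting noise (chi-square per degree of freedom 2.37 to 6.57), so none was treated as a duplicate.

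The members and lists were chosen with earlier results of these data known. All members are named; in each related list the 2 largest rises and 2 largest falls past the threshold with a mean of at least 1 CPM are named, 1 rise being all that the ER list had. Promoters are shown for members with a motif match and the largest changes. Floors cover counting error only. The lower NTX301 dose and the methylation arrays named in the labels were not analysed here, and 1 marker gene is not reported here.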

Additional observations from a re-analysis of the deposited data

How the results depend on the processing

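Across 13 alternatives, 403 of 428 member values kept their direction and side of the threshold, and 21 of the 33 tested members did so under all of them. On log2(TPM + 1) with limma, 9 of 32 tested members were lower, rather than 14 of 33. Over all genes tested in each fit, 3969 of 17266 were lower, rather than 6677 of 19029. Without a scaling factor and on log2(TPM + 1), 5 members with a negative log2 fold change under TMM scaling had a positive and uncalled one, which was 0.03 and 0.03 for MTHFD1L, 0.04 and 0.03 for PCK2, 0.09 and 0.04 for PSAT1, 0.11 and 0.10 for JDP2, and 0.06 and 0.18 for NUPR1; the last 3 were not called with TMM scaling either. In both settings the whole distribution moves up, by a median log2 of 0.21 without a scaling factor and 0.16 on log2(TPM + 1). Leaving out 1 library in turn gave 12 to 15 members higher and 14 to 15 lower, with 6400 to 6698 genes higher and 6319 to 6645 lower. With the replicate number as a block, 14 members rose and 14 fell, as without it, with 6837 and 6749 of 19029 tested genes. The block changed no member's call. DESeq2 also gave 14 and 14. Counts limit FGF21, ALDH1L2, NUPR1 and CHAC1, the scarcest members.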
